A study of Homo sapiens with 4 samples.

Results

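A set of 48 genes that act in S phase and DNA replication was followed in the gastric cancer cell line SNU638. The genes were chosen by symbol from their known roles, and all 48 were among the 46427 genes listed in the count table and among the 17781 that passed the filter on low counts. By role, 13 act in origin licensing, 19 at the replicative helicase or the fork, 3 in nucleotide supply, 4 in repair, 6 in chromatin and histone supply, and 3 in S phase entry.

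SNU638 is an established human line of gastric carcinoma cells. The cells carried either the control vector or a vector that expresses YTHDF1, a protein that binds N6‐methyladenosine in RNA, and each vector had 2 biological replicates. All cells were held without serum for 24 h and then given IFN‐γ at 10 ng/ml, so there were no untreated cells. The labels give 8 h of IFN‐γ, and the legends of the publication give a longer time. The methods of the study describe plasmid transfection in general, and the share of cells that took up the vector is not given in the sources used here.

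Before S phase, the origin recognition complex (ORC), CDC6 and CDT1 load the ring of MCM2 to MCM7 onto origins, and geminin (GMNN) blocks CDT1 once origins have fired. CDC45 and the GINS complex then turn the ring into an active helicase, primase starts each strand, and polymerases held by the PCNA clamp extend it. Most of these genes are known targets of E2F transcription factors, which are released from the retinoblastoma protein as cells enter S phase.

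The letters of E2F sites are shown first because they occurred in a larger share of these promoters than of others. RefSeq promoters of GRCh38.p14, from 250 bases before to 50 bases after each start, were matched by gene ID for 41 of the 48 genes. At least 1 of the letter strings TTTGGCGC, TTTCCCGC, TTTCGCGC and TTTGCCGC, searched on both strands and with overlaps allowed, occurred in 24 of the 41 (58.5%). They occurred in 6.41% of 12844 tested genes with a promoter and in 3.99% of all 27305 genes of the promoter table. Capitals mark every match in these stretches, which reach up to 40 bases to either side of the matches.
MCM6, chr2:135876482-135876635, minus strand: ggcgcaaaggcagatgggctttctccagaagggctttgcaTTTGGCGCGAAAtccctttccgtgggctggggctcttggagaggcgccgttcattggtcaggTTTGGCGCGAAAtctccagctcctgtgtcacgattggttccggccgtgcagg
CDT1, chr16:88803714-88803801, plus strand: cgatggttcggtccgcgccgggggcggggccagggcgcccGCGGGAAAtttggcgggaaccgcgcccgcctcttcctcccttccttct
GINS1, chr20:25407638-25407722, plus strand: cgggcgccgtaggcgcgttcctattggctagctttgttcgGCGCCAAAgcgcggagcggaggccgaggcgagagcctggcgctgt
PCNA, chr20:5126634-5126721, minus strand: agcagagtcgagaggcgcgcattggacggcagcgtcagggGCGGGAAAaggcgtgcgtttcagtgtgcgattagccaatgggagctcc
TYMS, chr18:657574-657661, plus strand: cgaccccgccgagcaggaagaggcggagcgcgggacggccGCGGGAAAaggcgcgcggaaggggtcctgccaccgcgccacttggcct
E2F1, chr20:33686358-33686458, minus strand: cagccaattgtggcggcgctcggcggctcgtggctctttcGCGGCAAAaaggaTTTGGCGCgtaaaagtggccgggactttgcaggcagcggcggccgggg
MCM6 had 4 matches, in which the strings of the 2 strands overlap at 2 places, and E2F1, itself an E2F factor, had 2. CCAAT on either strand occurred in 28 of 41 promoters (68.3%), against 42.5% of tested genes, and the string TTTGAA of the CHR element in 2 of 41 (4.88%), against 14.1%. PRIM1 and RRM2, which differed most between replicate numbers among the 17 matched genes without E2F letters, are shown with CCAAT in capitals.
PRIM1, chr12:56752297-56752381, minus strand: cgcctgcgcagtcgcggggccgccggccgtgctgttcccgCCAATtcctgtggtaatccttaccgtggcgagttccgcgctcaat
RRM2, chr2:10122576-10122717, plus strand: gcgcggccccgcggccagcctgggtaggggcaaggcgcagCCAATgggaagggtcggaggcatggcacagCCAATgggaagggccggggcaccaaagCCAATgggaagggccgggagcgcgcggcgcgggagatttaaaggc
The median log2 fold change between replicate numbers, described in detail further on, was −0.11 in the 24 genes with E2F letters and −0.12 in the 17 without. GINS4, CCNE2, MCM4, MCM5, POLD3, RPA2 and E2F8 had no matched promoter and are in neither group. GINS4 and CCNE2 differed between the numbers by 0.81 and −0.80. A match of letters is a description, not a binding site.

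Total counts were 57398137 to 60864942 per library. YTHDF1 itself stood at 82.2 CPM in control 1 and 80.3 CPM in control 2, against 16494.5 CPM in YTHDF1 1 and 2627.92 CPM in YTHDF1 2, so both vector libraries held the transgene and replicate 1 held more of it. CPM is a gene's count for each 1000000 counts of the library, with the library size adjusted by TMM normalization. The epithelial markers EPCAM, CDH1, KRT8, KRT18 and KRT19 were present in every library, at 34.7 to 3818 CPM. Of 11 markers of blood, fibroblast and endothelial cells, 6 did not pass the filter on low counts, COL1A1 reached 10.9 CPM and CD68 6.08 CPM, and the other 3 stayed under 1 CPM. The proliferation genes MKI67, TOP2A and CCNB1 were at 250 to 832 CPM, and the 48 replication genes together made up 4067 CPM in control 1, 3769 CPM in control 2, 4189 CPM in YTHDF1 1 and 3822 CPM in YTHDF1 2.

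Levels between genes were compared as CPM per kb of transcript, using the median length of the GENCODE v29 transcripts that carry the gene's RefSeq accessions, which matched all 48. PCNA, the sliding clamp, was highest at 203 to 218 CPM per kb over the 4 libraries. MCM7 followed at 84.7 to 108 CPM per kb, TYMS, which makes thymidylate, at 88.7 to 102 CPM per kb, and MCM3 at 80.4 to 86.9 CPM per kb. The lowest was CCNE2, the cyclin E2 gene, at 2.38 to 4.43 CPM per kb, below CASP8AP2 at 5.75 to 6.17 CPM per kb. In this order of 48 levels, the ranges of 39 of the 47 neighbouring pairs overlapped, and the 8 pairs that did not included the steps from PCNA to MCM7 and from CASP8AP2 to CCNE2. Single counts ran from 391 to 19040, and no gene had under 10 counts in a library.

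**Figure D1:**
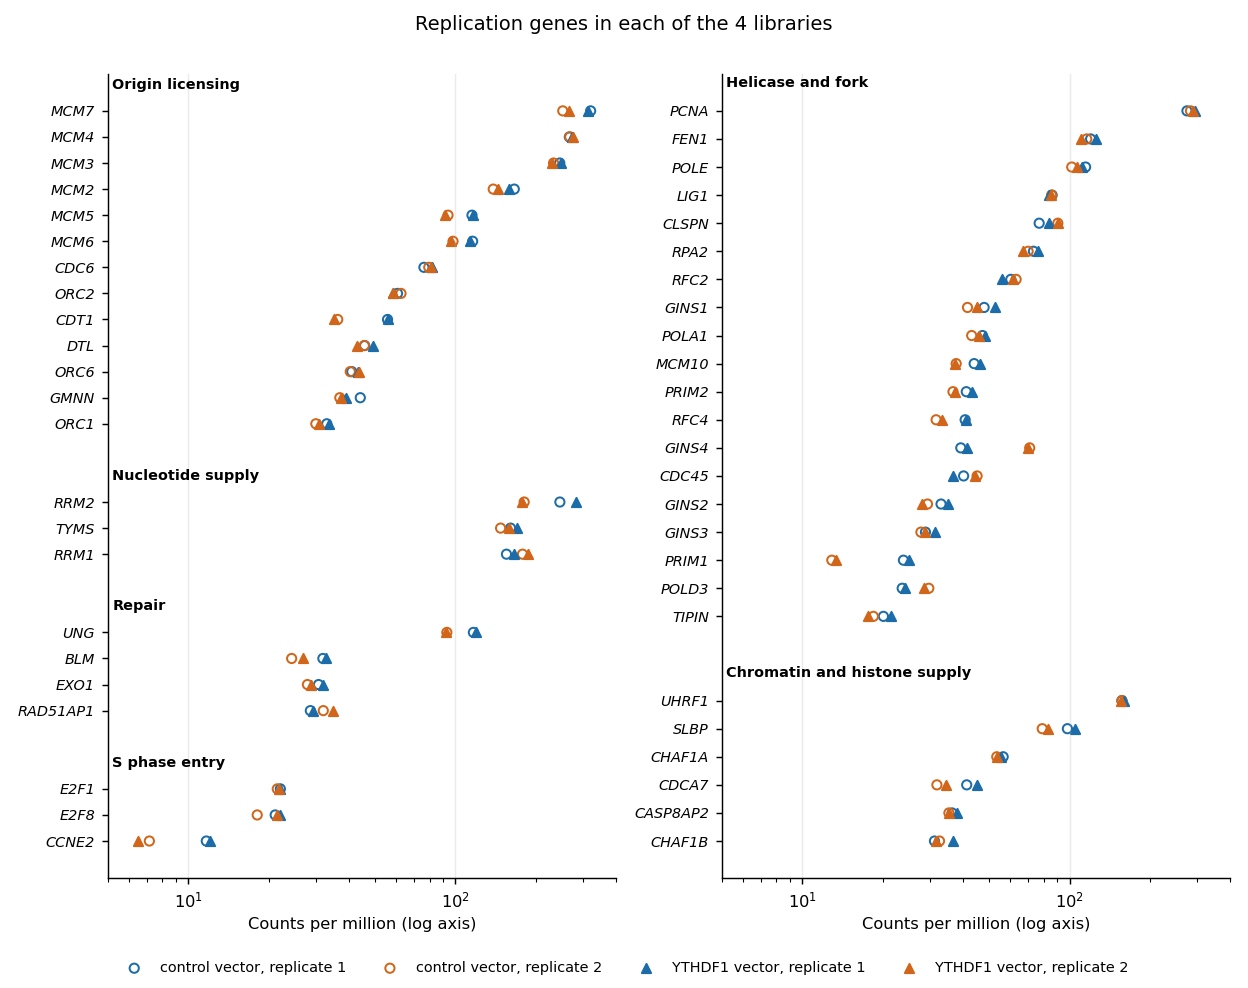
CPM (log axis) of the 48 genes in the 4 libraries, by role, with open circles for the control vector, filled triangles for the YTHDF1 vector, blue for replicate 1 and orange for replicate 2. In most rows points of one colour lie together, as in GINS4 with 39.2 and 41.2 CPM in replicate 1 and 71.0 and 70.0 CPM in replicate 2.

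The first comparison asked whether replication genes differ with YTHDF1 overexpression in cells given IFN‐γ. None of the 48 passed edgeR's quasi-likelihood test, and the fitted log2 fold changes, YTHDF1 minus control, ran only from −0.09 in GMNN to 0.15 in E2F8. Their standard errors were 0.07 to 0.49, and 0 calls do not show that the genes were unchanged. This fit held no term for the replicate number, so differences between the numbers add to these errors. The smallest unadjusted p was 0.36, that of ORC6, and all adjusted p (edgeR, Benjamini-Hochberg over 17781 genes) were 1.00. With a threshold of 0.5 on the size of the log2 fold change and of 0.05 on the unadjusted p, 0 of the 48 were called, where 0.101% of all genes tested were. At that p with no threshold on the fold, 0 of the 48 were called against 0.135% of all genes, or 24 genes. DESeq2's Wald test also gave 0 of the 48 with an unadjusted p under 0.05. At an adjusted p under 0.05 none of all genes were called by edgeR (0%). This included the overexpressed YTHDF1 itself, at a log2 fold change of 6.88 ± 1.20 (SE, n = 2 per group, edgeR, unadjusted p 0.0061). The adjusted test could therefore hardly have called the far smaller differences of the 48.

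More of the fitted differences lay above 0 than below. Of the 48 genes, 36 had a fitted log2 fold change above 0 (75%), against 52.2% of all genes, and their median was 0.025 against 0.0046 over all genes. Within replicate 1 the median difference of log2 CPM was 0.050 (0.0086 over all genes). There 37 of 48 were above 0 (77.1%, against 52.4% of all genes). Within replicate 2 the median was 0.0070, with 27 of 48 above 0 (56.2%, against 49% of all genes). In 21 genes YTHDF1 was above control within both numbers, where 25.9% of all genes were, and in 5 it was below within both, where 23.3% of all genes were. The other 22 had opposite signs. Both YTHDF1 libraries were above both control libraries in 5 of the 48 (10.4%, against 5.67% of all genes), namely ORC6, CDC6, MCM4, PCNA and E2F8. Both were below in 2 (4.17%, against 5.83%), ORC2 and LIG1. The members share libraries and are not replicates. The medians moved below 0 when control replicate 2 or YTHDF1 replicate 1 was left out (−0.032 and −0.033, with 18 and 16 of 48 higher). They rose to 0.095 and 0.090 without control replicate 1 or YTHDF1 replicate 2. Without 1 library the vector groups no longer hold both replicate numbers alike, so the difference between numbers enters these values. They do not measure the vector difference alone.

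**Figure D2:**
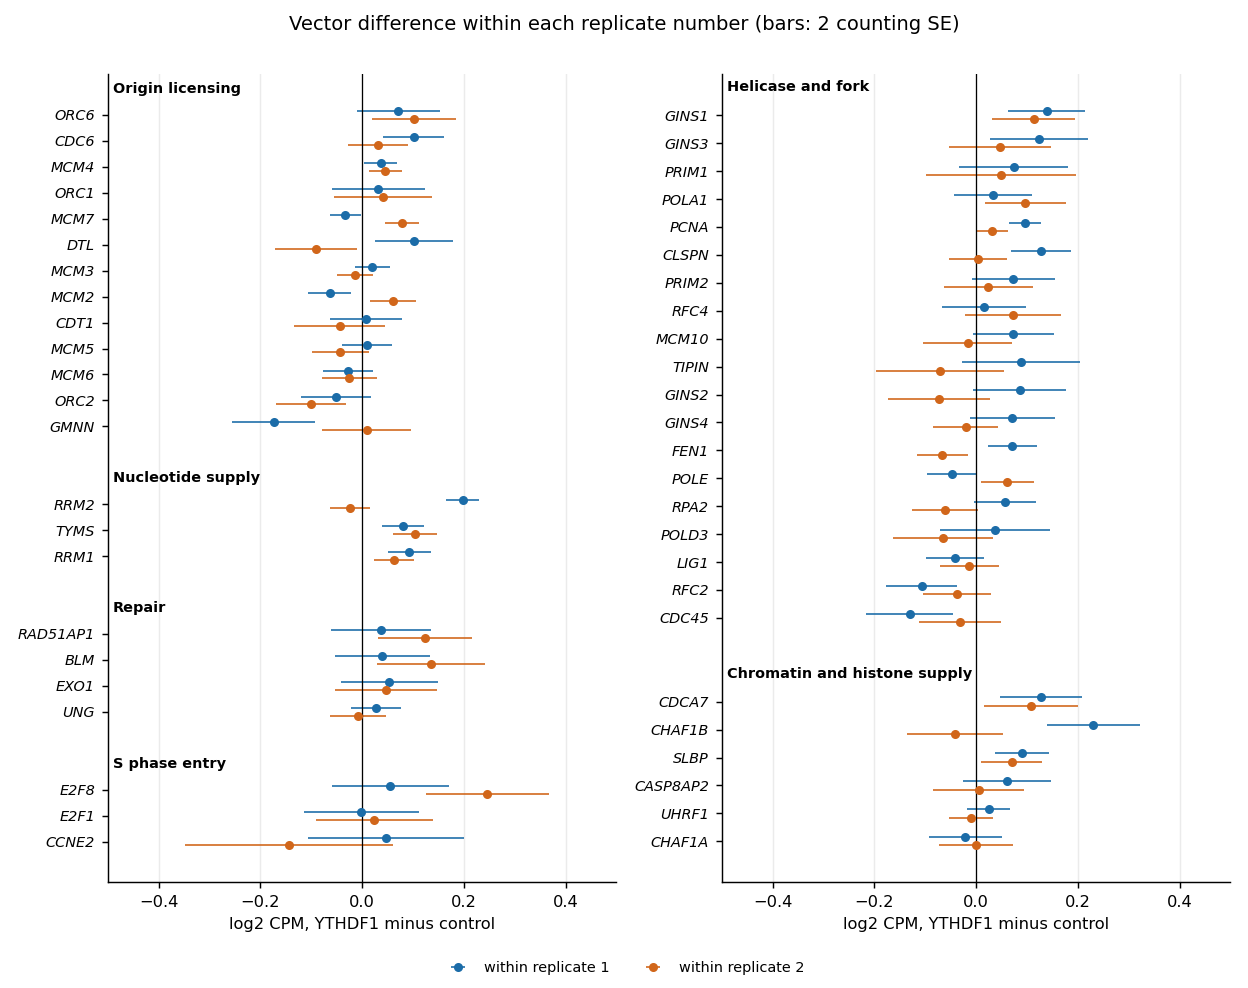
Difference of log2 CPM, YTHDF1 minus control, within replicate 1 (blue) and replicate 2 (orange) for each of the 48 genes, with bars of 2 counting standard errors. All points lie between −0.17 and 0.25, and in 7 genes both bars lie on the same side of 0.

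Counting error within a replicate number was 0.01 to 0.10 on the log2 scale, and both differences were larger than 2 such errors, in the same direction, in 7 genes. All were higher with YTHDF1 (14.6%, against 3.13% of all genes), and 0 were lower (against 1.92%). Genes with more counts pass this rule more easily, and all 48 had at least 391 counts per library. The 7 were MCM4, GINS1, PCNA, TYMS, RRM1, SLBP and CDCA7. Counting error does not include the spread between cultures, and this is a comparison of 1 library with 1 within each number.

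Among the 13 origin licensing genes the median log2 fold change with the vector was 0.0035, with 7 above 0 (53.8%, against 52.2% of all genes). ORC6, the smallest subunit of the origin recognition complex, was at 40.9 and 40.4 CPM in the control libraries, replicate 1 first here and in all pairs of values, and at 43.0 and 43.4 CPM in the YTHDF1 libraries. The groups did not overlap in ORC6, and the log2 fold change was 0.09 ± 0.08 (SE, n = 2 per group, edgeR's quasi-likelihood test, adjusted p 1.00). ORC2, another subunit, went the other way, at 60.7 and 62.5 CPM in control and 58.6 and 58.4 CPM in YTHDF1.

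MCM7 had the highest CPM of the licensing genes, with 320 and 252 CPM in control and 313 and 266 CPM in YTHDF1. Here the vector groups overlapped and the replicate numbers did not. MCM6 was at 116 and 97.9 CPM in control and at 114 and 96.2 CPM in YTHDF1, a difference of −0.03 within each number. CDC6, the loader that recruits MCM with CDT1, was at 76.2 and 79.4 CPM in control and 81.7 and 81.2 CPM in YTHDF1. GMNN, the inhibitor of CDT1, was at 44.0 and 36.9 CPM in control and 39.0 and 37.2 CPM in YTHDF1, which placed control replicate 1 above the rest. DTL, which directs the destruction of CDT1, differed by 0.10 within replicate 1 and −0.09 within replicate 2. The log2 fold changes of ORC1 and of MCM2, MCM3, MCM4 and MCM5 lay between −0.01 and 0.04.

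Among the 19 helicase and fork genes the median log2 fold change was 0.014, and 15 were above 0 (78.9%, against 52.2% of all genes). GINS1, a subunit of the GINS complex, was at 47.9 and 41.5 CPM in control and at 52.8 and 44.9 CPM in YTHDF1. YTHDF1 was higher within each number, by 0.14 and 0.11 on the log2 scale, but the groups overlapped. PCNA was at 275 and 283 CPM in control and 294 and 290 CPM in YTHDF1, without overlap, for a log2 fold change of 0.06 ± 0.08 (SE, n = 2 per group, edgeR, adjusted p 1.00).

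CDC45, the helicase cofactor, was at 40.2 and 45.1 CPM in control and 36.7 and 44.1 CPM in YTHDF1. RFC2, a subunit of the loader that places PCNA on DNA, was at 60.3 and 63.1 CPM in control and 56.0 and 61.5 CPM in YTHDF1. LIG1, the ligase that joins Okazaki fragments, was at 86.1 and 85.7 CPM in control and 83.6 and 84.9 CPM in YTHDF1. These 3 were the only fork genes lower within both numbers, by 0.01 to 0.13, and only in LIG1 were both YTHDF1 libraries below both control libraries. The polymerase genes POLA1, POLD3 and POLE had log2 fold changes of 0.06, −0.02 and 0.00. The flap nuclease gene FEN1 (0.01), the single-strand binder RPA2 (0.00), the checkpoint mediator CLSPN (0.06), the fork protection gene TIPIN (0.01) and MCM10 (0.03), a helicase activator, were as close to 0. The other GINS genes, both primase genes and RFC4, of the clamp loader, lay between 0.01 and 0.09.

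In nucleotide supply, all 3 fitted log2 fold changes were above 0. TYMS was at 161 and 147 CPM in control and at 170 and 158 CPM in YTHDF1. RRM1, the large subunit of ribonucleotide reductase, was at 155 and 178 CPM in control and 165 and 186 CPM in YTHDF1. Both were higher with YTHDF1 within each number, by 0.06 to 0.10, and both overlapped between the groups. RRM2, the small subunit, was at 246 and 181 CPM in control and 282 and 178 CPM in YTHDF1, a difference of 0.20 within replicate 1 and −0.02 within replicate 2. None of the 3 passed edgeR's test (adjusted p 1.00).

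Of the repair genes, UNG, which removes uracil from DNA, had the highest CPM, at 117 and 92.8 in control and 119 and 92.3 in YTHDF1. The helicase BLM, the exonuclease EXO1 and RAD51AP1, which acts in homologous recombination, had log2 fold changes of 0.08, 0.05 and 0.08. All 3 were higher with YTHDF1 within both numbers.

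Among the 6 genes of chromatin and histone supply the median log2 fold change was 0.06. UHRF1, which links replication to DNA methylation, was nearly level, at 157 and 157 CPM in control and 160 and 156 CPM in YTHDF1. SLBP, which binds the stem-loop of histone mRNA, was at 98.2 and 79.1 CPM in control and 105 and 83.0 CPM in YTHDF1. CDCA7 was at 41.3 and 31.9 CPM in control and 45.1 and 34.4 CPM in YTHDF1. Both were higher with YTHDF1 within each number, by 0.07 to 0.13, and the groups overlapped. CHAF1B, a subunit of the histone chaperone CAF-1, differed by 0.23 within replicate 1 and −0.04 within replicate 2, and its partner CHAF1A by −0.02 and 0.00. CASP8AP2, known for a role in histone gene expression, differed by 0.06 and 0.01.

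Of the S phase entry genes, E2F1 was at 22.1 and 21.5 CPM in control and 22.1 and 21.9 CPM in YTHDF1. E2F8, a repressor of the family, was at 21.2 and 18.1 CPM in control and 22.0 and 21.5 CPM in YTHDF1, with a log2 fold change of 0.15 ± 0.15 (SE, n = 2 per group, edgeR, adjusted p 1.00). Its groups did not overlap, and control replicate 2 stood apart below the other 3 libraries. CCNE2 was at 11.7 and 7.16 CPM in control and 12.1 and 6.48 CPM in YTHDF1.

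The second comparison set replicate 2 against replicate 1, with the vector in the model, because the libraries differed more by number than by vector. The labels call the numbers biological replicates and give them no other meaning. The fitted difference between numbers was larger than that between vectors in 40 of the 48 genes (83.3%), as it was in 83.5% of all genes. The median log2 fold change, replicate 2 minus replicate 1, was −0.12 against −0.01 over all genes. Of the 48, 36 were lower and 12 higher, where 9108 and 8673 of all 17781 genes were. With the same fold threshold and an adjusted p under 0.05 (edgeR's quasi-likelihood test), 1 gene rose (2.08%, against 9.71% of all genes) and 4 fell (8.33%, against 16.0%). Without the fold threshold, 6 rose (12.5%, against 23.0%) and 18 fell (37.5%, against 28.7%). With the fold threshold both shares lay under those of all genes, and without it the share that fell lay above.

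GINS4 was the gene that rose. It had 39.2 and 41.2 CPM in the replicate 1 libraries of control and YTHDF1 and 71.0 and 70.0 CPM in those of replicate 2, a log2 fold change of 0.81 ± 0.05 (SE, n = 2 per number, edgeR, adjusted p 1.3e-06). PRIM1, the catalytic subunit of primase, fell from 23.9 and 25.2 CPM to 12.9 and 13.3 CPM, a log2 fold change of −0.90 ± 0.07 (edgeR, adjusted p 5.4e-06). CCNE2 fell from 11.7 and 12.1 CPM to 7.16 and 6.48 CPM (−0.80 ± 0.11, edgeR, adjusted p 0.00016). In each of these 3 genes the libraries of one number lay wholly above those of the other, in both vectors.

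CDT1 fell from 55.7 and 56.0 CPM to 36.3 and 35.2 CPM (−0.64 ± 0.06, edgeR, adjusted p 8.4e-06). RRM2 fell from 246 and 282 CPM to 181 and 178 CPM (−0.55 ± 0.06, edgeR, adjusted p 2.6e-05), and without YTHDF1 replicate 1 its log2 fold change was −0.45, under the fold threshold. CDCA7, under the fold threshold, fell by 0.38 (edgeR, adjusted p 0.00041). With smaller rises, POLD3, an accessory subunit of polymerase delta, went from 23.7 and 24.3 CPM to 29.8 and 28.5 CPM (0.28 ± 0.07, edgeR, adjusted p 0.0061) and RRM1 rose by 0.18 (edgeR, adjusted p 0.0058). CDC45 rose by 0.22 and RAD51AP1 by 0.20 (edgeR, adjusted p 0.011 and 0.022), CLSPN being the sixth gene that rose. The calls of CDC45, RAD51AP1 and RRM1 were lost when single libraries were left out. CDC45 lost its call without control replicate 2, YTHDF1 replicate 1 or YTHDF1 replicate 2, with log2 fold changes of 0.21, 0.15 and 0.24. RAD51AP1 lost its call without control replicate 1 or YTHDF1 replicate 2 (0.19 and 0.15), and RRM1 without YTHDF1 replicate 2 (0.16).

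By role, 5 of the 13 licensing genes fell at an adjusted p under 0.05 by edgeR and none rose, where 28.7% of all genes fell and 23.0% rose. Besides CDT1 these were MCM5 (−0.32), MCM7 (−0.29), MCM6 (−0.24) and MCM2 (−0.20). Of the 19 helicase and fork genes, 7 fell and 4 rose. The falls beyond PRIM1 were smaller, in RFC4 (−0.33), MCM10 (−0.27), GINS2 (−0.25), GINS1 (−0.22), TIPIN (−0.20) and PRIM2 (−0.19). Of the repair genes UNG (−0.35) and BLM (−0.34) fell and RAD51AP1 rose, and of the chromatin genes SLBP (−0.32) and CDCA7 fell. The remaining 24 genes did not pass, and UHRF1, E2F1, ORC2, ORC6, CDC6, MCM4, LIG1 and PCNA lay between −0.025 and 0.025. MCM4, whose counts were among the highest, was at 267, 268, 273 and 276 CPM in control 1, control 2, YTHDF1 1 and YTHDF1 2.

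**Figure D3:**
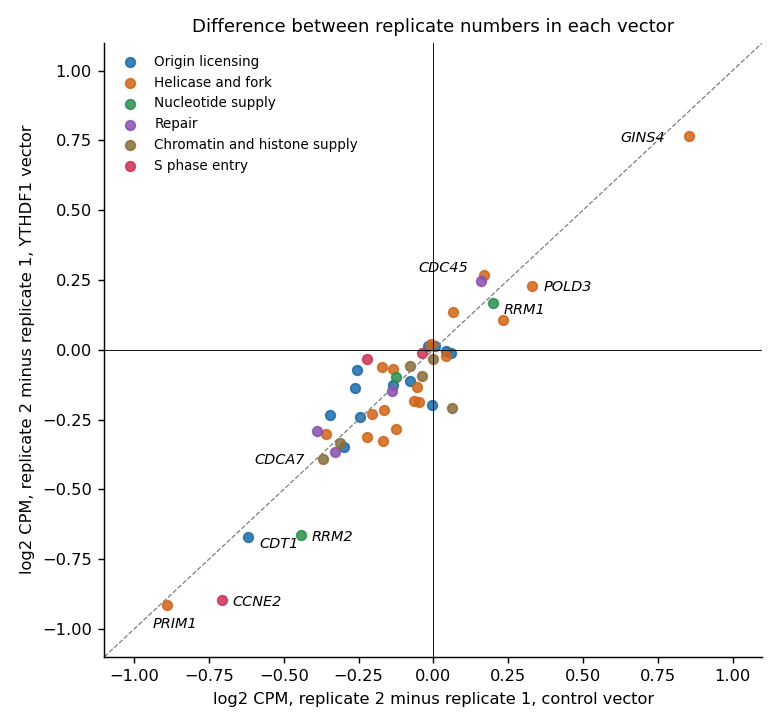
Difference of log2 CPM, replicate 2 minus replicate 1, in the control vector (x axis) and in the YTHDF1 vector (y axis), with 1 point for each of the 48 genes coloured by role and a dashed line where both are equal. PRIM1 (−0.89 and −0.91) and GINS4 (0.86 and 0.76) lie at the ends, near the line.

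Subunits of 1 complex often differed between the numbers by unlike amounts. In GINS, GINS4 rose by 0.81 while GINS1 and GINS2 fell by 0.22 and 0.25 and GINS3 was at −0.09. In primase, PRIM1 was at −0.90 and PRIM2 at −0.19. In ribonucleotide reductase, RRM1 was at 0.18 and RRM2 at −0.55. Their levels were alike only as averages over the 4 libraries (66.5 and 66.1 CPM per kb). In replicate 1, RRM1 was at 60.2 and 64.2 CPM per kb in control and YTHDF1, below RRM2 at 73.3 and 84.1. In replicate 2, RRM1 was at 69.1 and 72.2 CPM per kb, above RRM2 at 53.9 and 53.0. The 6 MCM genes ran from −0.32 in MCM5 to 0.01 in MCM4, the 3 ORC genes of the set from −0.13 to 0.02, and CHAF1A and CHAF1B were at −0.07 and −0.08. Of the ORC genes outside the set, ORC3 was at −0.05 and ORC4 and ORC5 at −0.14 and −0.39, so this complex spread further than its 3 genes here show. With the vector, the same complexes spread over 0.01 to 0.16 between their lowest and highest subunit.

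**Figure D4:**
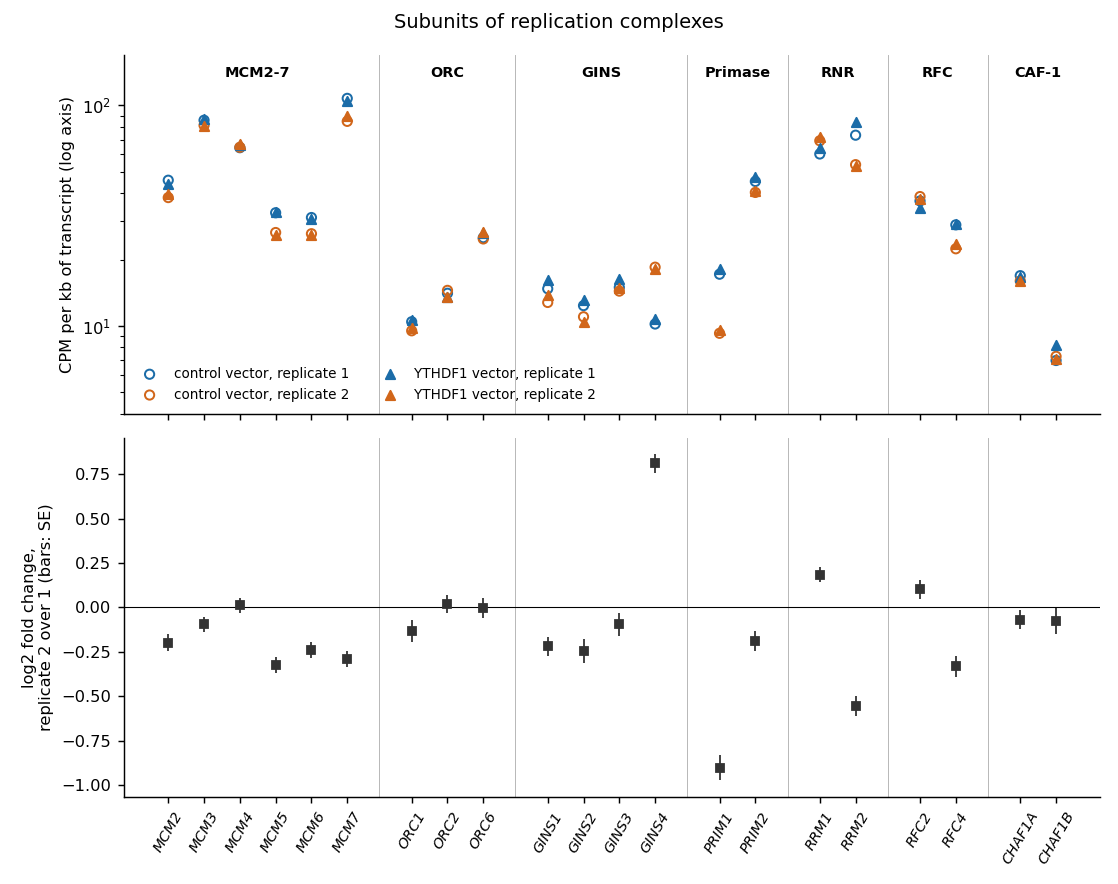
Upper panel, CPM per kb of transcript (log axis) in the 4 libraries for subunits of 7 complexes (RNR, ribonucleotide reductase); lower panel, log2 fold change of replicate 2 over replicate 1 with bars of 1 standard error. GINS4 (0.81) and PRIM1 (−0.90) stand apart from the other subunits of their complexes.

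Other genes of the pathway were compared in the same way. Of 50 further replication genes, none passed edgeR's test for the vector at an adjusted or an unadjusted p under 0.05. Their median log2 fold change was 0.023, and 34 of 50 lay above 0 (68%, against 75% of the 48). Between replicate numbers 1 rose (2%) and 6 fell (12%) at the fold threshold, both smaller shares than the 9.71% and 16.0% of all genes. Their median between numbers was −0.10, with 33 of 50 lower and 17 higher in replicate 2. POLE4, a small subunit of polymerase epsilon, rose by 0.62, and RECQL4, MCMBP and POLE3 fell by 0.65, 0.55 and 0.59 (edgeR, all with adjusted p under the threshold). Of 28 genes that control S phase entry, 0 passed for the vector by edgeR at an unadjusted p under 0.05. In 20 of the 28 the fitted vector difference lay above 0 (71.4%). Between numbers 3 of them rose (10.7%) and 5 fell (17.9%), close to the shares of all genes. CDK6, a cyclin D kinase, fell by 2.01, RBL2, a pocket protein, by 1.28 and E2F2 by 1.27, while CCND2, CDKN2B and E2F7 rose by 0.87, 0.58 and 0.55. The mitotic and proliferation genes moved with the numbers too, with TOP2A up by 0.61, CCNB1 up by 0.21 and MKI67 down by 0.13, and so did the 5 epithelial markers, with KRT18, KRT8 and KRT19 up by 1.01, 0.79 and 0.36 and CDH1 and EPCAM down by 0.58 and 0.18. Their part in the replication genes' differences was not tested.

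YTHDF1 reads N6‐methyladenosine, which lies mostly in a short motif whose most used form is GGACT. In the longest matched transcript, 43 of the 48 genes held GGACT at least once (89.6%), against 90.1% of 15167 tested genes with a matched transcript. The median was 0.912 per kb in the 48 and 0.942 per kb in those genes.

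Some counts may include reads of neighbours. In the GENCODE v29 annotation of GRCh38, exons of 17 of the 48 genes overlap exons of another gene, mostly of the opposite strand. The kit marks strand, but the strand setting of the counting is not given in the sources used here. CCNE2 shares up to 1628 bases with INTS8 on the other strand, which had 4293 and 4597 counts in replicate 1 and 2933 and 2963 counts in replicate 2, and so differed in the same direction as CCNE2 with more counts than its 391 to 711. TYMS shares 719 bases with ENOSF1, and PRIM1 shares 123 with HSD17B6, which had 67 to 113 counts per library. On the same strand, PRIM1 shares up to 101 bases with AC117378.1 and RRM2 up to 159 with AC007240.1. GINS4 shares up to 814 bases with AC009630.2 on the other strand. No counts were matched to AC117378.1, AC007240.1 or AC009630.2. Of 11 listed pseudogenes named after these genes, 6 had 0 counts in every library and none had more than 6 counts.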

How the data were processed

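Messenger RNA was measured in 4 libraries of SNU638 cells. Per the labels, RNA was taken with a column kit and libraries were made with a stranded poly(A) kit. The authors deposited whole-number counts of reads per gene, not normalized, by symbol and NCBI Gene ID. The submitters' processing notes name Trimmomatic, HISAT2 and GRCh38. The counting tool, its strand setting and the annotation release are not given in the sources used here.

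The software was edgeR 4.0.16, with limma 3.58.1, under R 4.3.3. Genes kept by filterByExpr were scaled by TMM and compared by the quasi-likelihood test, fitted on all 17781 genes with Benjamini-Hochberg adjustment. Differences within a replicate number are of log2 CPM with a prior count of 0.5, without a test. The 48 genes and the other lists were chosen with earlier results of these data known. The genes with printed library values are, by rule, the one with the highest CPM in each role, those with the largest differences of 1 sign within both numbers, and the 5 highest and 5 lowest between numbers, and a few were added after their values were seen (CDC6, GMNN, MCM4 and E2F8). From the other lists, the 3 called with the smallest p were to be named.

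Alternatives were DESeq2 1.42.0 size factors and Wald test, YTHDF1 left out of library sizes, total counts only, other filters on low counts, a prior count of 2, other thresholds, the replicate block, the replicate number alone, and each library left out. For the replicate number, leaving out libraries was added after the data were seen. Replicates of a group differed far beyond sampling noise (chi-square divided by its degrees of freedom, 136 for control and 167 for YTHDF1) and were counted as separate. The steps were tested on simulated data. Errors derived from counts leave out all but counting, and reads that carry no molecular identifier need not be separate molecules. Python 3.11.15 with matplotlib 3.10.9 drew the figures.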

Additional observations from a re-analysis of the deposited data

How the results depend on the processing

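With the fold threshold and an unadjusted p under 0.05, no alternative called any of the 48 genes for the vector. Genes called for the vector over all genes, 4 higher and 14 lower, became 32 and 50 with no filter on low counts and 0 and 0 at an adjusted p under 0.05. Without 1 library they ran from 4 to 49 higher and from 11 to 55 lower, the median of the 48 from −0.033 to 0.095 and those higher from 16 to 40. The replicate block, which pairs libraries of the same replicate number, gave 58 higher and 134 lower genes. It gave an unadjusted p under 0.05 for GINS1 (0.043, edgeR's quasi-likelihood test), and 0 of the 48 passed at an adjusted p under 0.05. The labels give the number no meaning beyond biological replicate. Same-numbered libraries nevertheless deviated together (correlation 0.875 over all genes and 0.935 over the 48, 2 pairs). The median of the 48 between numbers was −0.12 with DESeq2 size factors and with the Wald test, −0.11 with YTHDF1 left out of library sizes and with no filter, −0.13 with at least 10 counts in every library, and −0.15 to −0.087 without 1 library. With a fold threshold of 1 on the log2 scale, 661 genes were higher and 1925 lower in replicate 2, and 0 and 0 of the 48 were higher and lower. Without 1 library, vector values were followed gene by gene only for those with the largest differences of 1 sign within both numbers. Among these, the log2 fold change changed sign in CDCA7 (−0.088 to 0.32), SLBP (−0.094 to 0.25), RRM1 (−0.019 to 0.18), CDC45 (−0.22 to 0.051) and MCM6 (−0.15 to 0.10). Sign changes in the rest of the 48 were not listed by gene. With 1 library left out, a group holds a lone library, assumed to vary like the rest, so these are values only. The vector groups then no longer hold both replicate numbers alike, so differences between numbers enter the vector values. Within both numbers, the vector differences of CDCA7, SLBP, RRM1, CDC45 and MCM6 each had the same sign. The causes were not tested. Depth limits little here, since every gene had at least 391 counts per library, while 2 libraries per group limit the vector comparison.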
